A study of Mus musculus with 24 samples.

Results

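The 87 gene models described here carry names of nuclear subunits of the oxidative phosphorylation complexes of the mouse. They were taken by name from the 55401 gene models in the quantification. A model was included when it has protein-coding transcripts and its symbol begins with Nduf followed by a, b, c, s or v and a digit, with Cox and a digit from 4 to 8, with Uqcr or with Atp5, or is Sdha, Sdhb, Sdhc or Sdhd. The rule uses names and annotation only, but it was written with earlier results of these data known. The rule gave 38 models for complex I, 4 for complex II, 8 for complex III, 19 for complex IV and 18 for complex V, under 86 symbols, since Atp5o has a second model. Subunits whose symbols follow other patterns are left out, so the set and the sums by complex are not complete. The rule also took in names that do not match their place in the chain. Ndufa4 is named for complex I but its protein is now placed in complex IV, Cox7a2l encodes a factor that joins complexes III and IV, and Ndufb1-ps and Cox5b-ps carry pseudogene names although protein-coding transcripts are annotated for them.

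Oxidative phosphorylation takes electrons from NADH (complex I) and succinate (complex II) through complex III to oxygen at complex IV, and complexes I, III and IV pump protons across the inner mitochondrial membrane. Complex V, the ATP synthase, lets the protons flow back and makes ATP. Most subunits are encoded in the nucleus and imported, while a small set of core subunits of complexes I, III, IV and V is encoded in mitochondrial DNA, so that each of these complexes needs both genomes. Muscle and absorptive epithelium are rich in mitochondria. T cells that are activated through their receptor are known to enlarge their mitochondrial mass as they grow and divide.

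The series holds 24 bulk RNA libraries from male C57BL/6 mice aged 11 weeks, made by SMART-seq2, a full-length cDNA method, in 6 groups of 4. Naive mice without stimulation received an empty vehicle or the herbicide propyzamide, and stimulated mice received vehicle or propyzamide and were sampled 3 h or 24 h after anti-CD3, an antibody to the T cell receptor complex. All groups share the strain, sex and age. The sources used here do not state the dose, the tissue or any cell sort. Since nothing says how the libraries of a group are related, p-values measure only the spread between these samples.

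Total estimated counts ran from 438750 to 2072033 in 23 libraries and were 9812458 in propyzamide 24 h replicate 3. Counts in named protein-coding nuclear genes, the scale for the sums below, ran from 8645 to 116398 in those 23 and reached 2349511 in the deepest. These genes held a larger part of all counts in the deepest than in any other library. Its TMM scaling factor was 4.56, against 0.597 to 1.31 in the others. The shallowest, propyzamide 3 h replicate 3, had a count for 13 of the 87 models, against 78 in the best of the other 22 and 85 in the deepest. Several results that rest on either library are given with and without it. The title places the work in T cells. All 12 T cell markers had counts, but their sum was only 145.7 to 1872 nCPM, the unit of all sums below, which is a count scaled to a total of 1000000 in named protein-coding nuclear genes, while 18 intestinal epithelium markers summed to 443.7 to 18580, 9 B cell markers to 809.7 to 9753 and plasma cell markers to 578.4 to 17014. Markers of several cell types were thus present, and in such libraries fewer cells of a type and less RNA per cell cannot be told apart. By the library names, the 3 groups of unstimulated vehicle, unstimulated propyzamide and vehicle 3 h share 1 i5 index, and the remaining 3 groups share another. The labels do not call this a batch, and where a comparison crosses the index its part cannot be told apart from that of the group.

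The members held 13904 estimated counts in the 23 libraries other than the deepest and 55991 in all 24. Complex V took 34.5% of the counts in the 23 libraries, complex I 24.9%, complex IV 21.1%, complex III 12.98% and complex II 6.58%. These shares are not per length and follow the number of subunits as well as their levels. Per length, as mean TPM (transcript abundance scaled for length and depth) over 24 libraries, the median was 4.17 for the 38 complex I models, 4.42 for complex II, 11.3 for complex III, 6.89 for complex IV and 11.2 for complex V. On this mean, the typical nuclear mRNA of the ATP synthase or of complex III was more abundant per length than that of complex I. The mean includes the deepest library, where named nuclear genes held a larger part of all counts. No TPM level without that library is given, here or for the single members below.

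Within complex IV the levels split by isoform. Cox4i1, which encodes the subunit that binds ATP as a regulator, had the highest mean of all members at 30.6 TPM, and Cox8a, the widely expressed form of the smallest subunit, followed at 26.0 TPM. Cox6a1 stood at 18.1 TPM and Cox6b1 at 17.5 TPM. The 10 widely expressed subunits held 2580 counts in 23 libraries, whereas the 7 tissue-restricted isoforms held 22.0. Cox7a1, the heart and skeletal muscle form, had 11.0 counts in 23 libraries and its widely expressed partner Cox7a2 had 117.8. The muscle forms Cox6a2 and Cox8b had no count there, and their 2 and 3 counts came from the deepest library. Cox7b, the partner of Cox7b2, had 122.8 counts. Cox4i2, the lung form, had 2 counts, Cox6b2 had 2, Cox7b2 had 6 and the testis form Cox8c had 1. Ndufa4l2, the paralog of Ndufa4, also had 2 counts. Smooth and striated muscle markers summed to 61.5 to 694.0 nCPM in the 24 libraries, and their part in this split was not tested.

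In the other complexes, the highest mean levels per length belonged to Ndufa4 at 23.3 TPM, Atp5md, a small membrane subunit of the ATP synthase, at 19.0 TPM, Atp5b, the catalytic beta subunit, at 18.2 TPM, and Uqcr11, the smallest subunit of complex III, at 18.2 TPM. Further members with high counts were Ndufv2, a core subunit of complex I, at 6.25 TPM, the accessory subunit Ndufa2 at 10.4 TPM, and Atp5d, the delta subunit of the F1 stalk, at 11.8 TPM. Complex II was more even, with Sdhb, the iron-sulfur subunit, at 5.77 TPM, the flavoprotein Sdha at 4.64 TPM and the membrane anchors Sdhd and Sdhc at 4.20 and 1.73 TPM. The 7 core subunits of complex I, which carry the flavin and the iron-sulfur clusters, held 900.4 counts in 23 libraries against 2267 for 29 accessory subunits. Short transcripts with processed copies in the genome are hard to assign. For 38 of the 87 models more than 10% of the stretches of 31 bases also occur in transcripts of another gene, with 94.0% for the second model of Atp5o (shared most with Donson), 85.4% for Atp5l (with Gm10221), 74.4% for Cox5b-ps (with Cox5b), 59.5% for Atp5o, 58.2% for Uqcrb and 55.0% for Ndufs3, and levels of such members are uncertain.

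**Figure D1:**
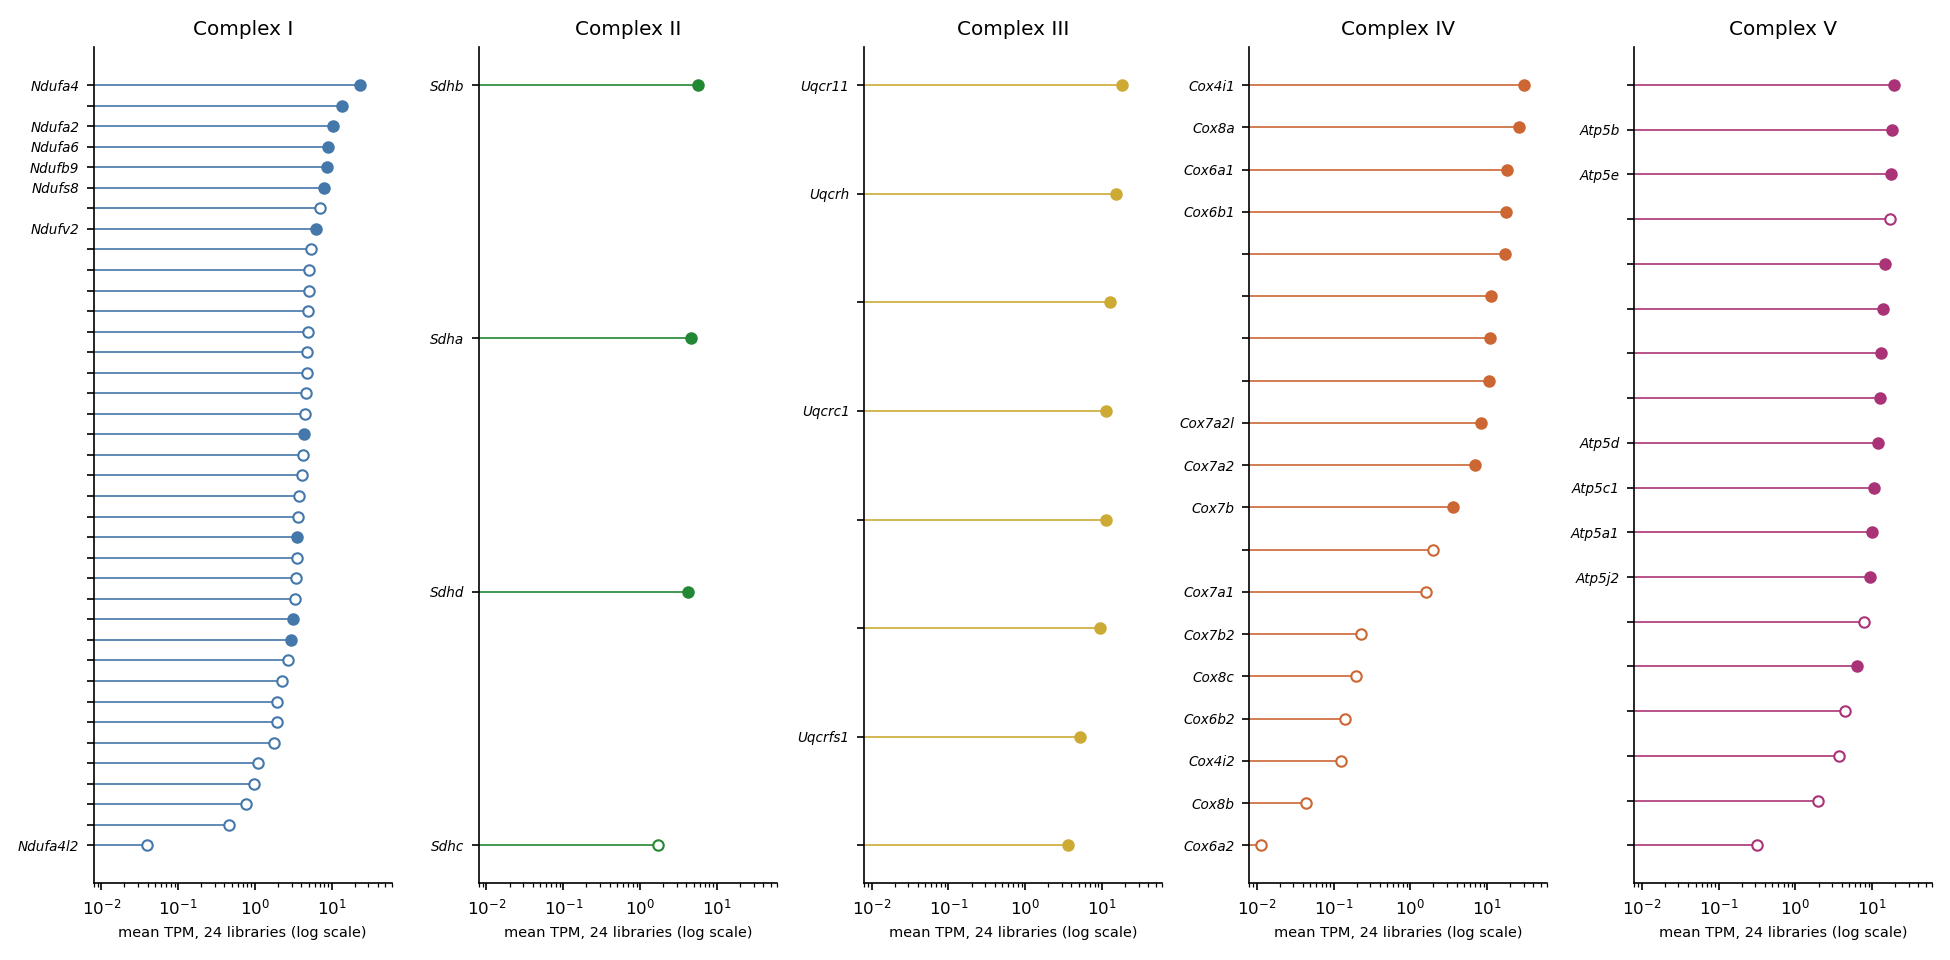
Mean TPM over 24 libraries (log scale) of each of the 87 gene models, by complex; names stand beside the 35 members that the naming rule gave, filled circles are the 45 models that passed the filter on low counts and open circles those that did not. The tissue-restricted isoforms of complex IV stand at the bottom of their panel, more than a decade below Cox4i1 and Cox8a.

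Summed over the 87 models, nuclear subunit mRNA differed by 1.11-fold between the means of unstimulated and 3 h vehicle libraries. The 4 unstimulated vehicle libraries stood at 11380, 12120, 9804 and 12281 nCPM. At 3 h the values were 11355, 9087, 11254 and 9206, and at 24 h they were 8091, 10284, 9941 and 10377. The means ± SD were 11396 ± 1132, 10226 ± 1248 and 9673 ± 1071 (n = 4 each), and each pair of groups overlapped. The log2 ratio of means was -0.16 at 3 h and -0.24 at 24 h against unstimulated. Sums over members were compared without a test, because the members were chosen as a set.

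With propyzamide the libraries were more spread. The unstimulated libraries stood at 15853, 8380, 22356 and 17709 nCPM, with 3 above all vehicle libraries of that stage and 1 below all of them. At 3 h the values were 12179, 10221, 1811 and 12429, the low one from the shallowest library, where the sum rests on 16 counts (exact 95% interval 1058 to 3004 nCPM, for counting error only). At 24 h they were 9282, 13192, 17913 and 12937, the highest from the deepest library. The means ± SD were 16074 ± 5813, 9160 ± 4998 and 13331 ± 3539 (n = 4 each). The highest sums of all 24 libraries, 22356 and 17913, were in the libraries with the highest epithelial marker sums, 18580 and 11897 nCPM, and the part of epithelium in them was not tested.

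Against vehicle, the propyzamide means were 1.41-fold higher without stimulation and 1.38-fold higher at 24 h, with 3 of 4 propyzamide libraries above all vehicle libraries each time and overlap in both. At 24 h this is a log2 ratio of 0.46, and it was 0.29 without the deepest library, 0.79 with TMM-scaled CPM of all genes and 2.36 with TPM. No value without the deepest library is given for the TMM or the TPM scale. Without stimulation the log2 ratio was 0.50, 0.29 without propyzamide unstimulated replicate 3 and 0.71 without replicate 2. At 3 h the propyzamide mean was lower by 0.16 on the log2 scale with all libraries and higher by 0.18 without the shallowest one. Within propyzamide, the 3 h mean stood at a log2 ratio of -0.81 to the unstimulated mean, and at -0.47 without the shallowest library. From 3 h to 24 h the ratio was 0.54, and it was 0.02 without the shallowest and the deepest library.

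**Figure D2:**
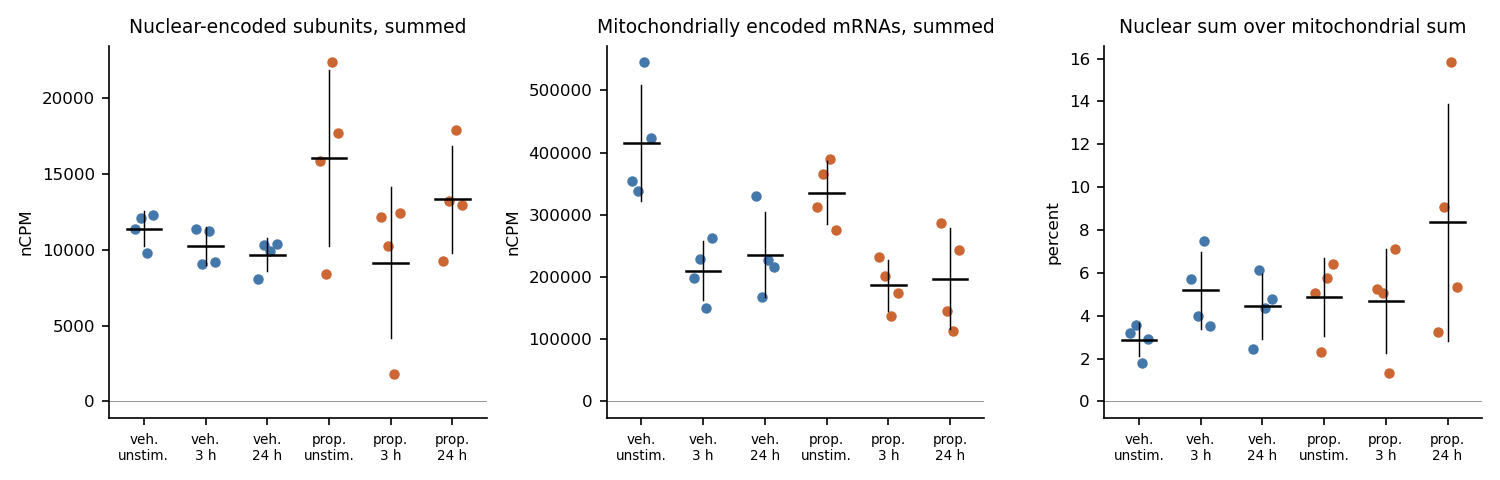
Nuclear subunit sum and mitochondrially encoded mRNA sum, each in nCPM, and the first as a percentage of the second, in the 6 groups (prop., propyzamide; veh., vehicle). Points are libraries, horizontal bars the means and vertical bars the SD of 4; the mitochondrial sum is lower in all 4 vehicle libraries at 3 h (150078 to 262189) than in all 4 without stimulation (338610 to 544823), while the nuclear sums of these groups overlap.

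The summed mRNAs from mitochondrial DNA were lower in every vehicle library after anti-CD3 than in any without stimulation. The sum of the 13 in nCPM was 354884, 338610, 544823 and 422931 in unstimulated vehicle libraries and 198617, 228336, 150078 and 262189 at 3 h. All 4 of the 3 h libraries lay below all unstimulated ones, with means 1.98-fold apart. The 24 h vehicle libraries, at 330490, 168307, 227236 and 216498, also lay below every unstimulated vehicle library. In propyzamide libraries the sum was 312536, 364968, 388864 and 275700 without stimulation and 231921, 202148, 136623 and 174973 at 3 h, again without overlap and with means 1.80-fold apart. At 24 h it was 287493, 145379, 113211 and 242550, where 1 library overlapped the unstimulated range.

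Single mitochondrial genes were in the fit across all genes. Among the 13, mt-Cytb (cytochrome b of complex III) fell by 1.52 ± 0.34 on the log2 scale (SE), mt-Nd4 by 1.51 ± 0.31 and mt-Nd5 by 1.55 ± 0.32 (both core subunits of complex I) from unstimulated to 3 h with propyzamide, at adjusted p of 0.0269, 0.0207 and 0.0207 (edgeR). In vehicle libraries none of the 13 passed the adjusted threshold at 3 h (edgeR), while 9 were lower at an unadjusted p under 0.05 and the median log2 fold change was -1.15. Epithelial marker sums at 3 h in vehicle libraries, 3546 to 10103 nCPM, overlapped those without stimulation, 6065 to 8331. Plasma cell marker sums did not overlap, at 3649 to 7757 and 9238 to 15203 nCPM, with means 1.96-fold apart. All 9 B cell markers tested had a log2 fold change below 0 (median -1.18), as did all 4 plasma cell markers tested (-1.23), and the part of these cells in the mitochondrial sum was not tested.

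The ratio of nuclear to mitochondrial subunit mRNA accordingly differed between stages. In vehicle libraries it was 3.21%, 3.58%, 1.80% and 2.90% without stimulation, 5.72%, 3.98%, 7.50% and 3.51% at 3 h, and 2.45%, 6.11%, 4.38% and 4.79% at 24 h. At 3 h, 3 of 4 libraries exceeded every unstimulated one, and the mean log2 values differed by 0.83, or by 0.62 to 0.99 when a library was left out. At 24 h the difference was 0.60, with 3 of 4 libraries above. With propyzamide the ratio was already 5.07%, 2.30%, 5.75% and 6.42% without stimulation, above all vehicle libraries of that stage in 3 of 4. It was 5.25%, 5.06%, 1.33% and 7.10% at 3 h and 3.23%, 9.07%, 15.8% and 5.33% at 24 h, where the highest value came from the deepest library. From unstimulated to 3 h the propyzamide difference was -0.20 with all libraries and 0.33 without the shallowest, so its direction rests on that library.

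The ratio was also taken within complexes. At 3 h, nuclear mRNA of complex V relative to mt-Atp6 and mt-Atp8 in vehicle libraries was higher than without stimulation. It was 4.80%, 5.19%, 3.04% and 5.24% without stimulation and 9.73%, 6.48%, 12.5% and 6.35% at 3 h, without overlap. For complex III, relative to mt-Cytb, it was 4.15%, 3.87%, 2.40% and 3.67% against 8.41%, 4.19%, 15.5% and 5.34%, also without overlap. Both ratios were therefore higher in each 3 h library than in any unstimulated vehicle library. For complex I, relative to the 7 mt-Nd genes, the means were 1.73% and 3.43%, and for complex IV, relative to the 3 mt-Co genes, 2.29% and 3.11%, and the libraries of these complexes overlapped. With propyzamide the same step overlapped for complexes III and V. The means without stimulation and at 3 h, the shallowest library included, were 6.565% and 7.585% for complex III and 9.099% and 7.631% for complex V. Vehicle libraries at 24 h also overlapped those without stimulation for both complexes. Complex II has no mitochondrial gene, so no such ratio exists for it. Its sum was 631.3 ± 313.8 nCPM at 3 h and 835.7 ± 137.5 without stimulation in vehicle libraries (n = 4 each), with overlap.

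**Figure D3:**
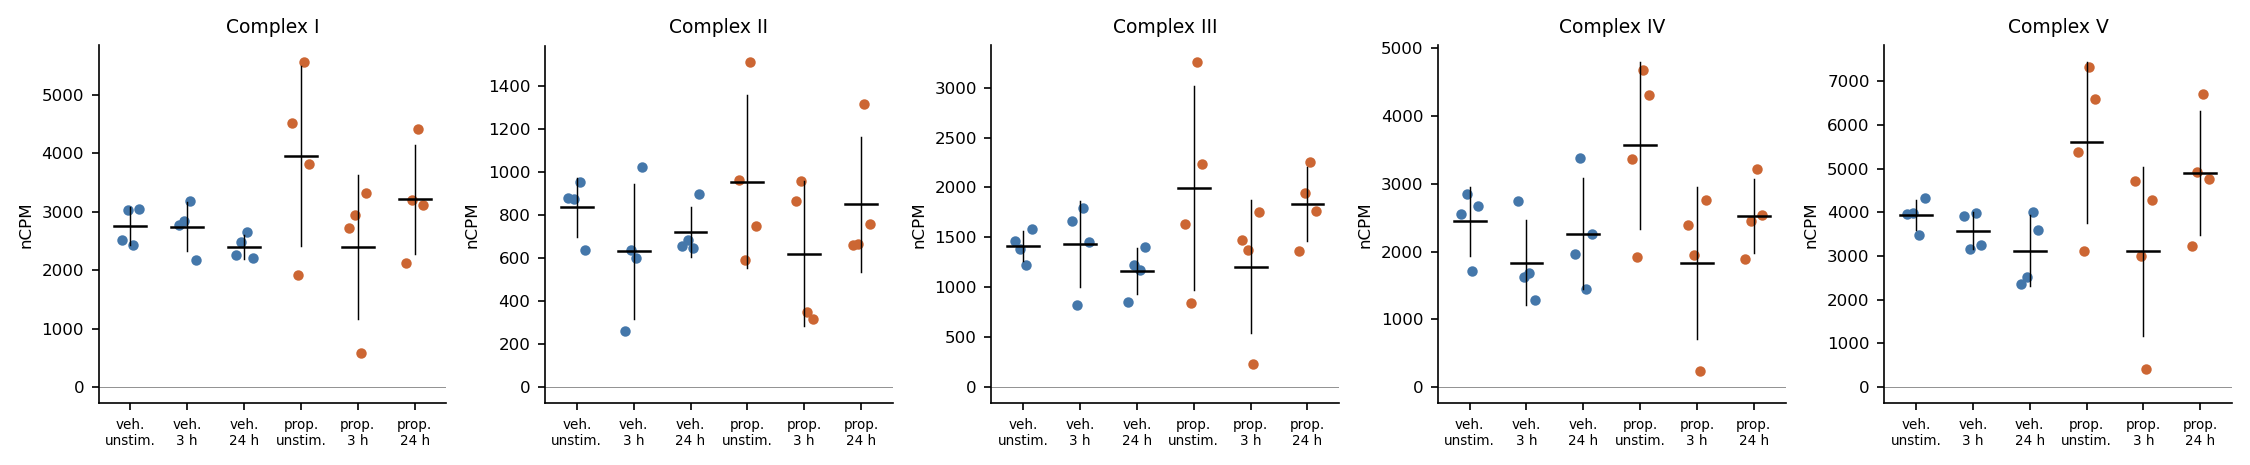
Sum of the nuclear subunits of each complex in nCPM in the 6 groups, with points for libraries, horizontal bars for means and vertical bars for the SD of 4. In each of the 5 panels the unstimulated propyzamide mean lies above the unstimulated vehicle mean, and the libraries of these groups overlap.

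All 5 complexes had higher means with propyzamide than with vehicle without stimulation and at 24 h. From vehicle to propyzamide without stimulation the log2 ratio of means was 0.52 for complex I, 0.19 for complex II, 0.50 for complex III, 0.55 for complex IV and 0.51 for complex V. At 24 h it was 0.42, 0.24, 0.66, 0.16 and 0.65 in the same order, and libraries overlapped each time. The share of complex IV in the nuclear sum was 19.1% ± 1.07 at 24 h with propyzamide and 22.4% ± 1.59 without stimulation (SD, n = 4 each), without overlap. By role within complexes, the Rieske and core proteins of complex III at 24 h were the group of subunits without overlap between treatments, at 999.7 ± 215.2 nCPM with propyzamide and 606.4 ± 113.8 with vehicle (n = 4 each), without overlap. The F1 head and stalk of the ATP synthase, 5 genes that hold 20.5% of all member counts in 23 libraries, stood at 2995 ± 1094 with propyzamide and 1971 ± 775.0 with vehicle at 24 h, with overlap. In vehicle libraries, the core subunits of complex I were lower at 24 h, 475.4 ± 214.8, than without stimulation, 795.5 ± 124.3. These groups did not overlap but nearly touched, at 676.2 for the highest library at 24 h and 678.1 for the lowest without stimulation. The accessory subunits were at 1682 ± 13.97 and 1750 ± 193.5, with overlap. At 3 h they were at 1984 ± 242.8, without overlap with 24 h. Across the roles and comparisons most pairs of groups overlapped. These roles were drawn up after the values were known and carry no test.

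Single genes were tested with edgeR's quasi-likelihood test, fitted to all 2766 genes that passed a filter on low counts, with Benjamini-Hochberg adjustment within each comparison and a call at an adjusted p of 0.05 or less. The filter kept 45 of the 87 models (11 of complex I, 3 of II, all 8 of III, 11 of IV and 12 of V), and levels of single members from here on are TMM-normalized counts scaled to all genes (CPM). In 8 of the 9 comparisons between groups no member was called. In the 2 interactions, given last, none was called either. The exception was 24 h against 3 h with propyzamide, where 5 members rose and none fell. There, 14.8% of all genes tested were called and 8.1% were called as higher, and 5 of 45 members stands near that background.

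From unstimulated to 3 h with vehicle, 0 of 45 members were called by edgeR (0.325% of all genes tested were), 0 by DESeq2, and 0 had an unadjusted p under 0.05 (6.22% of all genes tested did). The median log2 fold change of the 45 was -0.43, with 39 below 0, against -0.29 for 1497 named protein-coding genes and -0.05 for all genes tested. Sdha was at 19.1, 22.9, 18.6 and 19.0 CPM without stimulation and at 9.93, 11.7, 9.24 and 18.5 CPM at 3 h. Its libraries did not overlap, as in 2 further members, among them Ndufa1, an accessory subunit of complex I (3 of 45; 5.86% of all genes tested), and the adjusted p of Sdha was 0.998. Ndufa1 was higher at 3 h, with a log2 fold change of 1.17 ± 0.74 (SE, adjusted p = 0.987, edgeR).

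At 24 h against unstimulated with vehicle, 0 of 45 members were called by edgeR (0.434% of all genes tested were), 0 by DESeq2, and 0 had an unadjusted p under 0.05 (7.74% of all genes tested did). None had libraries without overlap (7.38% of all genes tested did). The median of the members was -0.14 and that of named genes 0.22. Over the same interval 3 epithelial markers were called as lower, and the summed epithelial markers went from 6065 to 8331 nCPM down to 443.7 to 816.6, means 11.8-fold apart. Plasma cell markers went from 9238 to 15203 nCPM down to 1923 to 2592. The nuclear subunit sum differed by 1.18-fold over the same libraries.

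From 3 h to 24 h with vehicle, 0 of 45 members were called by edgeR (0% of all genes tested were), 1 was higher at an unadjusted p under 0.05 and DESeq2 called 1 of 48 (1.95% of its 3327 genes). Of all genes tested by edgeR, 12% had such a p and 8.5% were higher with it. The gene was Cox7a2l in both. It stood at 0, 5.51, 0 and 10.1 CPM at 3 h and at 21.5, 26.1, 18.7 and 9.33 CPM at 24 h, so that 3 of 4 libraries at 24 h lay above all at 3 h. The log2 fold change was 2.13 ± 0.69 (SE, adjusted p = 0.170, edgeR) and the adjusted p with DESeq2 was 0.0467. The median of the 45 members was 0.44 and that of named genes 0.49. No member had libraries without overlap (11.1% of all genes tested did).

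From unstimulated to 3 h with propyzamide, 0 of 45 members were called by edgeR (0.651% of all genes tested were), and 15 were lower at an unadjusted p under 0.05, where 9.58% of all genes tested were and 13.1% had such a p in either direction. Of 1497 named genes, 229 were lower at such a p. The median log2 fold change of members was -1.21, with 44 of 45 below 0, against -0.64 for named genes and -0.13 for all genes tested. Without the shallowest and the deepest library the median of members was -1.09. DESeq2 called 4 of 37 members as lower, namely Atp5a1, Atp5j2, Cox6a1 and Cox7a2l, and 3.79% of all 2398 genes in that test. Cell type markers were lower in the same step. All 14 epithelial markers tested had a log2 fold change below 0 (median -1.73, 6 at an unadjusted p under 0.05), with the mean epithelial sum 2.23-fold lower, and so had all 9 B cell markers (-1.01) and all 4 plasma cell markers tested (-1.01). The part of these cells in the result was not tested.

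Atp5j2, which encodes a small subunit in the membrane part of the ATP synthase, had the smallest p. It was at 18.8, 4.55, 12.5 and 15.1 CPM without stimulation and at 0.80, 0, 0 and 4.53 CPM at 3 h, without overlap (log2 fold change -2.84 ± 0.79, adjusted p = 0.0938, edgeR). Without propyzamide 3 h replicate 4 the log2 fold change was -4.75 (-4.75 to -2.45 over all fits without 1 library). Cox6a1, the widely expressed form of a regulatory subunit of complex IV, was at 15.4, 7.28, 28.1 and 22.0 CPM and then at 5.59, 4.56, 0 and 6.04 CPM, without overlap (-2.01 ± 0.61, adjusted p = 0.110, edgeR). Ndufa6, an accessory subunit of complex I, was at 12.0, 1.82, 13.5 and 9.28 CPM and then at 1.60, 1.52, 0 and 0 CPM. Its 4 libraries at 3 h hold 3 counts in all, and the ratio of pooled levels without stimulation to those at 3 h was 11.7 (95% counting interval 3.76 to 59.2). Libraries of 5 of the 45 members did not overlap in this comparison, all lower at 3 h, where 8.53% of all genes tested did not overlap and 5.57% were lower.

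From 3 h to 24 h with propyzamide, the 5 genes that rose were Ndufa6, Uqcrfs1, Cox7a2l, Atp5a1 and Atp5j2, so that complexes I, III and IV gave 1 each and complex V 2. Cox7a2l, the factor that joins complexes III and IV, was at 3.99, 7.60, 0 and 2.78 CPM at 3 h and at 16.8, 29.9, 22.99 and 19.2 CPM at 24 h. The groups did not overlap, and the log2 fold change was 2.54 ± 0.69 (SE, adjusted p = 0.0281, edgeR). In both treatments its lowest library was at 3 h and its highest at 24 h, and a difference between treatments in this step was not tested. Its transcripts share 21.4% of their stretches of 31 bases with other genes, most with Gm6969.

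Atp5a1 encodes the alpha subunit of the F1 head. Its values were 28.7, 10.2, 0 and 15.8 CPM at 3 h and 27.7, 43.8, 98.9 and 44.8 CPM at 24 h, with 3 of 4 libraries at 24 h above all at 3 h (1.86 ± 0.53, adjusted p = 0.0327, edgeR). Without the shallowest and the deepest library its log2 fold change was 1.05 (adjusted p = 0.192, edgeR). Atp5b, its catalytic partner in the head, was not called, at 1.37 ± 0.50 (adjusted p = 0.0601, edgeR).

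Uqcrfs1 encodes the Rieske iron-sulfur protein of complex III. It was at 4.79, 1.52, 0 and 9.05 CPM at 3 h and at 11.8, 21.7, 21.6 and 11.7 CPM at 24 h, without overlap (1.91 ± 0.62, adjusted p = 0.0431, edgeR). Atp5j2 was at 0.80, 0, 0 and 4.53 CPM at 3 h and at 10.1, 6.60, 13.1 and 7.47 CPM at 24 h, also without overlap (2.44 ± 0.78, adjusted p = 0.0410, edgeR). The log2 fold change of Atp5j2 was 2.01 to 4.30 when 1 library was left out, the highest without propyzamide 3 h replicate 4. Its 24 h values lie within the range of unstimulated propyzamide libraries, 4.55 to 18.8 CPM.

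Ndufa6 rose from 3 counts at 3 h to values of 1.68, 8.48, 9.05 and 13.9 CPM at 24 h (3.29 ± 0.99, adjusted p = 0.0347, edgeR). Every 24 h library lay above every 3 h library, but the lowest, 1.68, stood just over the highest 3 h value, 1.60. The ratio of pooled levels was 11.0 (95% counting interval 3.74 to 53.7) and 10.8 (3.27 to 56.3) without the deepest library.

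**Figure D4:**
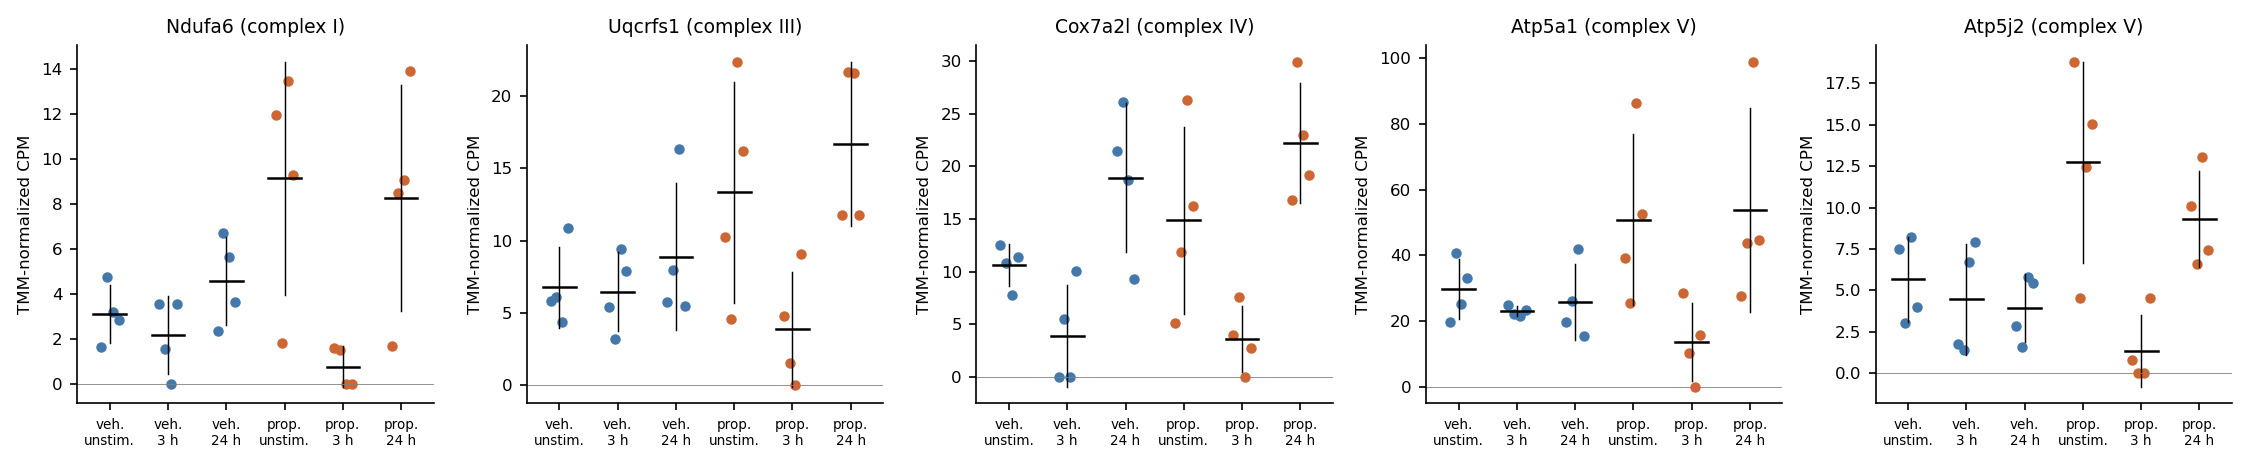
TMM-normalized CPM of the 5 members called between 3 h and 24 h with propyzamide, in all 6 groups, with points for libraries, horizontal bars for means and vertical bars for the SD of 4. In each panel the 3 h propyzamide mean lies below the 24 h propyzamide mean, and of these 5 genes Atp5a1 is the one whose libraries overlap between these groups.

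The call of these 5 genes rests on few libraries. The number of members called was 0 without propyzamide 3 h replicate 2 or 3 or without propyzamide 24 h replicate 2 or 4, 1 without propyzamide 3 h replicate 4 or propyzamide 24 h replicate 3, and 0 without the shallowest and the deepest library together. It was 2 or 3 in fits that left out propyzamide 3 h replicate 1, propyzamide unstimulated replicate 1 or 4, vehicle 3 h replicate 1, 2 or 4, or any library of the unstimulated or 24 h vehicle groups. RLE scaling gave 17 of 45, with 27.1% of all genes tested called. DESeq2 gave 18 of 67, with 18.9% of its 6100 genes called, and both held all 5. A fit to named protein-coding genes only gave 0 of 34, with 3.83% of its 1331 genes called.

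The median of members lay close to that of named genes in this step. Their median log2 fold change was 1.15, with 44 of 45 above 0, against 1.05 for the 1497 named genes and 0.16 for all genes tested. With RLE scaling the median of all genes tested was 0.85 and that of members 2.01. In the fit to named protein-coding genes without the shallowest and the deepest library the median of members was 0.06, against 0.009 for all genes in that fit. With all libraries the fit to named genes gave 0.45 for members and 0.23 for its genes. The fit to all genes without the shallowest and the deepest library gave 0.65 for members and 0.06 for its genes. Libraries of 10 members did not overlap, all higher at 24 h, where 23.2% of all genes tested did not overlap and 12.9% were higher. An unadjusted p under 0.05 was reached by 15 members, all higher, where 34.7% of all genes tested reached it and 20% were higher. Of the 1497 named genes, 503 were higher at such a p, so the members stand near that share. B cell markers rose over the same step, 6 of 9 called, and went from 809.7 to 3620 nCPM at 3 h to 4214 to 9753 at 24 h, means 3.22-fold apart. T cell markers summed to 145.7 to 694.1 nCPM at 3 h and 1120 to 1872 at 24 h, means 3.37-fold apart and without overlap, and Trbc2, the 1 T cell marker tested, rose (3.18 ± 1.05, adjusted p = 0.0452, edgeR). The part of B and T cells in the result was not tested.

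**Figure D5:**
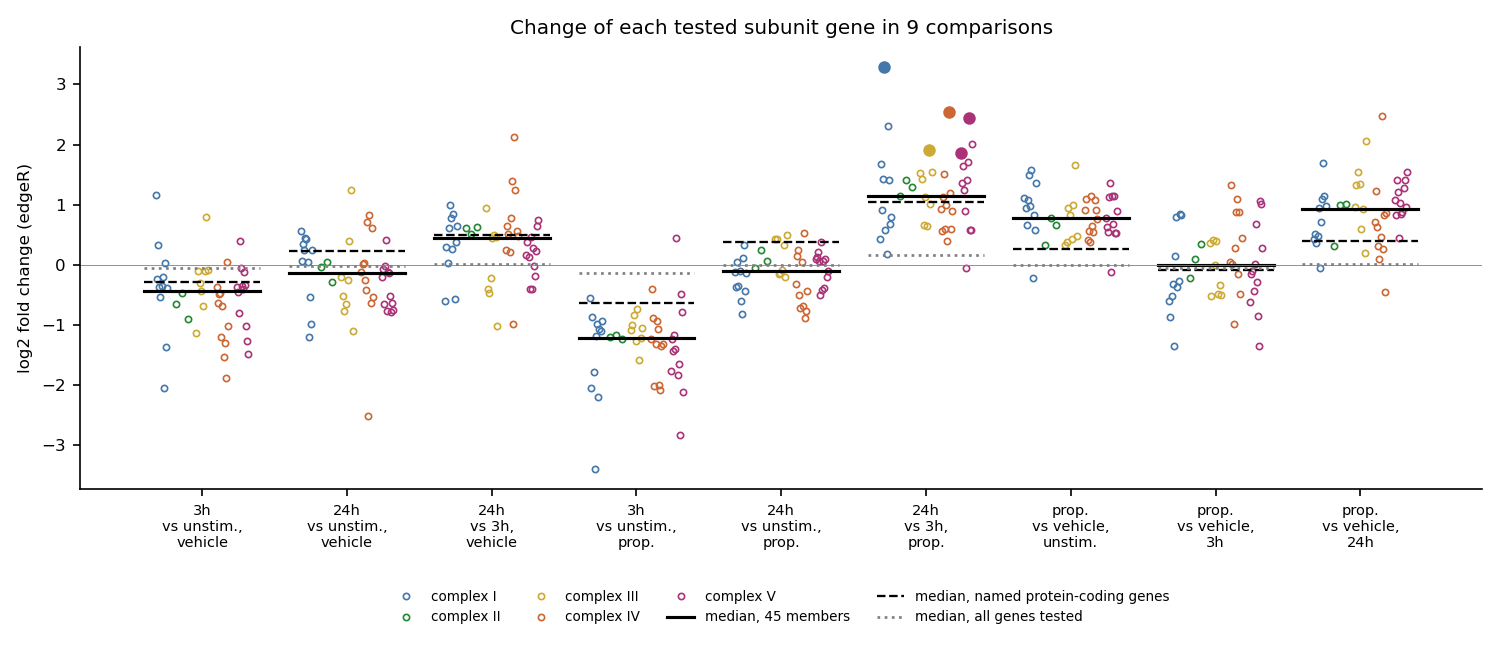
Log2 fold change (edgeR) of each of the 45 tested members in the 9 comparisons between groups, coloured by complex, with filled circles for the 5 called. Solid bars are the median of members, dashed bars that of 1497 named protein-coding genes and dotted bars that of all 2766 genes tested; the member median is 1.15 and the named median 1.05 for 24 h against 3 h with propyzamide, and 0.78 and 0.26 for propyzamide against vehicle without stimulation.

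The promoters of these genes give the sequence context. RefSeq promoters on GRCm38.p6, from 250 bases before to 50 after the annotated start, were matched to 70 of the 87 models. The first 4 below belong to genes that rose from 3 h to 24 h with propyzamide, and the promoter of Atp5a1, which also rose, is not shown. Uqcrc1 and Uqcr11, the members of complex III with the highest mean CPM and the highest mean TPM, are shown because both hold the NRF1 motif. They lie at chr15:82354242-82354541 (Ndufa6, minus strand), chr13:30545267-30545566 (Uqcrfs1, minus), chr17:83514284-83514583 (Cox7a2l, minus), chr5:145191492-145191791 (Atp5j2, minus), chr9:108936398-108936697 (Uqcrc1, plus) and chr10:80406772-80407071 (Uqcr11, minus). Each is written 5′ to 3′ on the strand of the gene, with matches to the motifs below in capitals.
Ndufa6: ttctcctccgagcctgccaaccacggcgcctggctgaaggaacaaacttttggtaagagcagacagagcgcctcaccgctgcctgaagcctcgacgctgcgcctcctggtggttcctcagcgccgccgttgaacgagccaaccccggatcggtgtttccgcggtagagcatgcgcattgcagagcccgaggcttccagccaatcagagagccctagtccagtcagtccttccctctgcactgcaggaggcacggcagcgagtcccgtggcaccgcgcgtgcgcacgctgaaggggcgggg
Uqcrfs1: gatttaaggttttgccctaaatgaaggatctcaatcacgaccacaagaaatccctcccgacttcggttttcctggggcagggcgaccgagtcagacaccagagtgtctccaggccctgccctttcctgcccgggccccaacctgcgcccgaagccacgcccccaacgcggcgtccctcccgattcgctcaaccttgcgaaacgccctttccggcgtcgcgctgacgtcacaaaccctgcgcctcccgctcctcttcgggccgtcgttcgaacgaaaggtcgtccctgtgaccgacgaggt
Cox7a2l: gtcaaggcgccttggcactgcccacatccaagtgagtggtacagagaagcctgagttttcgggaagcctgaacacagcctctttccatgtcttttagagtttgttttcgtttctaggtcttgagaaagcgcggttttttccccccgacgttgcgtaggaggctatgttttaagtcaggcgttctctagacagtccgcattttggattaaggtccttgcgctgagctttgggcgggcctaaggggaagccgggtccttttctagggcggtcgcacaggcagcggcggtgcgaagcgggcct
Atp5j2: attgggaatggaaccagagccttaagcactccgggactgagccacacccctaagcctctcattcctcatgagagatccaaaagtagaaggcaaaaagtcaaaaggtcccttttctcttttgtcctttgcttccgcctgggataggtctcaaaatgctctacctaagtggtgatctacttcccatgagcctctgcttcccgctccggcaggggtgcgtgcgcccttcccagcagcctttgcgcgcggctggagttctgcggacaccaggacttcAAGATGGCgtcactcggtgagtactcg
Uqcrc1: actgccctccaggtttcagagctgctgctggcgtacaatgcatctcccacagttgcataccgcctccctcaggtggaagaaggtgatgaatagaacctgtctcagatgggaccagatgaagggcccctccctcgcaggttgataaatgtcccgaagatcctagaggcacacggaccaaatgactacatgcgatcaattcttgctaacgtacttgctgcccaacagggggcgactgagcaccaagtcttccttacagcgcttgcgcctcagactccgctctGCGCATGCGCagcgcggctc
Uqcr11: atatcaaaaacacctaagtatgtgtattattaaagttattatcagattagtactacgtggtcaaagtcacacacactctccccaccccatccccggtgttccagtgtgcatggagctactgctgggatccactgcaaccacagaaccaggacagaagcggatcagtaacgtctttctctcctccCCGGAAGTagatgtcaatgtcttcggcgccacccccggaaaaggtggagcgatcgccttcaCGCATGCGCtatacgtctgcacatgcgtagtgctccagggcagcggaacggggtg

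Motifs of 4 factors known to bind promoters of respiratory genes were searched on both strands. GCGCATGCG, for NRF1 (nuclear respiratory factor 1), occurred in promoters of 8 of 70 members (11.4%), in 3.03% of 14499 named protein-coding genes and in 1.75% of all 32851 RefSeq promoters. AAGATGGC, for YY1, occurred in 10 of 70 members (14.3%), in 3.98% of those genes and in 2.75% of all promoters. CCGGAAGT, for GABP, occurred in 5 of 70 members (7.14%), close to its 6.57% of named genes, and in 3.89% of all promoters. TCAAGGTCA, for the estrogen-related receptors, occurred in 2 of 70 members (2.86%), in 0.366% of named genes and in 0.423% of all promoters. In all, 24 of 70 members held at least 1 of them. In Uqcrc1 the NRF1 motif matches both strands at overlapping positions, and Uqcr11 holds the NRF1 and the GABP motif. Of the called genes shown, Atp5j2 holds the YY1 motif, and the letters of none of the 4 motifs occur in the windows of Ndufa6, Uqcrfs1 and Cox7a2l. A match is a description of the letters in this window and shows no binding.

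From unstimulated to 24 h with propyzamide, 0 of 45 members were called by edgeR (0.0723% of all genes tested were), 0 by DESeq2, and 0 had an unadjusted p under 0.05 (13.5% of all genes tested did). The median of members was -0.10 and that of named genes 0.38, and without the shallowest and the deepest library that of members was -0.46. No member had libraries without overlap (6.98% of all genes tested did).

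Propyzamide against vehicle gave no call at any stage. Without stimulation 0 of 45 members were called by edgeR (0% of all genes tested were) and 0 by DESeq2, while 43 of 45 had a log2 fold change above 0, with a median of 0.78 against 0.26 for named genes. An unadjusted p under 0.05 was reached by 3 members, all higher (1.3% of all genes tested were higher with such a p and 3.25% had one). Of 1497 named genes, 23 were higher with one. Ndufb9, an accessory subunit of complex I, was at 4.99, 6.48, 2.74 and 3.995 CPM with vehicle and at 25.6, 3.33, 19.2 and 6.62 CPM with propyzamide, and the groups overlapped (1.57 ± 0.67, adjusted p = 1, edgeR). Uqcrh, the hinge protein of complex III, was at 2.71, 8.64, 3.29 and 1.91 CPM and at 10.3, 3.64, 30.2 and 6.96 CPM, with overlap. Atp5e, the epsilon subunit of the F1 stalk, was at 4.99, 6.48, 5.48 and 4.57 CPM and at 15.4, 1.82, 17.7 and 20.9 CPM, with 3 propyzamide libraries above and 1 below all vehicle libraries. Libraries of 1 member, Uqcrb, did not overlap (2.64% of all genes tested did not, 0.868% as higher). Uqcrb, a small subunit of complex III, was at 4.99, 4.68, 5.48 and 2.27 CPM with vehicle and at 7.12, 9.10, 7.44 and 10.4 CPM with propyzamide, each library above all with vehicle. Epithelial markers summed to 5688 to 18580 nCPM with propyzamide and 6065 to 8331 with vehicle here. All 14 epithelial markers tested had a log2 fold change above 0 (median 0.86, 1 at an unadjusted p under 0.05, edgeR), and their part was not tested.

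At 3 h, 0 of 45 members were called between treatments by edgeR (0% of all genes tested were), 0 by DESeq2, and 0 had an unadjusted p under 0.05 (3.22% of all genes tested did). The median of members was -0.01, with 22 above and 23 below 0, and it was 0.28 without the shallowest and the deepest library. No member had libraries without overlap (2.39% of all genes tested did).

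At 24 h, 0 of 45 members were called between treatments by edgeR (0% of all genes tested were) and 0 by DESeq2, while 43 of 45 were above 0, with a median of 0.93 against 0.40 for named genes. Without the shallowest and the deepest library the median was 0.59. An unadjusted p under 0.05 was reached by 4 members, all higher (3.94% of all genes tested were higher with such a p and 9.83% had one), and these were Ndufs8, Uqcrc1, Atp5a1 and Atp5c1. Of 1497 named genes, 100 were higher with such a p. Uqcrc1, a core protein of complex III, was at 9.82, 18.7, 18.7 and 5.46 CPM with vehicle and at 25.2, 31.1, 46.9 and 29.5 CPM with propyzamide, without overlap (1.34 ± 0.59, adjusted p = 0.493, edgeR). Ndufs8, a core iron-sulfur subunit of complex I, was at 4.30, 6.34, 3.50 and 0 CPM and at 6.72, 14.1, 12.5 and 13.9 CPM, also without overlap (1.70 ± 0.69, adjusted p = 0.421, edgeR). Atp5c1, the gamma subunit that turns within the F1 head, was at 4.30, 3.17, 14 and 18.2 CPM and at 13.4, 26.4, 33.1 and 27.7 CPM, where 3 of 4 propyzamide libraries lay above all vehicle ones. Libraries of 3 of 45 members did not overlap, all higher with propyzamide (4.99% of all genes tested did not overlap, 2.49% as higher). Epithelial markers stood at 443.7 to 816.6 nCPM with vehicle and 689.5 to 11897 with propyzamide. All 14 epithelial markers tested were higher at an unadjusted p under 0.05 (median log2 fold change 3.15, edgeR), though none was called. Their part in the result was not tested.

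Whether propyzamide altered the response to anti-CD3 was tested as an interaction. At 3 h, 0 of 45 members were called by edgeR (0% of all genes tested were) and 0 by DESeq2, with 2 members, Ndufa6 and Atp5j2, lower at an unadjusted p under 0.05 (1.81% of all genes tested were, and 3.22% had such a p). The median was -0.77 against -0.30 for named genes. At 24 h, 0 of 45 were called by edgeR (0% of all genes tested were) and 0 by DESeq2, 0 had an unadjusted p under 0.05 (2.53% of all genes tested did), and the median was 0.13 against 0.15. A difference of the response between treatments was thus not detectable for any member at this depth.

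Other mitochondrial genes were called in the same step. Of 17 genes of the citric acid cycle and pyruvate dehydrogenase, which supply the electrons, 10 were tested and 4 rose from 3 h to 24 h with propyzamide, where 8.1% of all genes tested and 207 of 1497 named genes were called as higher. Among these were Cs (citrate synthase, log2 fold change 1.55 ± 0.52, adjusted p = 0.0458), Idh3g (a subunit of isocitrate dehydrogenase, 3.22 ± 0.84, 0.0266) and Ogdh (2-oxoglutarate dehydrogenase, 1.88 ± 0.54, 0.0334), all by edgeR. Of 13 carriers and outer membrane proteins, 8 were tested and 2 rose, Slc25a3, the phosphate carrier (1.88 ± 0.55, adjusted p = 0.0336, edgeR), and Slc25a5, an ADP/ATP carrier (1.40 ± 0.42, adjusted p = 0.0347, edgeR). Of the 13 mitochondrial mRNAs, all read against the same background shares, 2 rose, mt-Co1 (0.95 ± 0.32, adjusted p = 0.0464, edgeR) and mt-Nd5 (1.05 ± 0.32, adjusted p = 0.0347, edgeR). These fold changes are on the TMM scale of all genes, where the median of named genes in this step was 1.05. In nCPM the means of the summed mitochondrial mRNAs were 186416 at 3 h and 197158 at 24 h, 1.06-fold apart and with overlap. The rise of these mRNAs thus depends on the scale. No gene of these 3 lists was called in another comparison, apart from the mitochondrial mRNAs at 3 h with propyzamide given above. From 3 h to 24 h with propyzamide, 409 of 2766 genes tested were called with all libraries. Without the shallowest and the deepest library 32 of 2806 were. The calls of these lists are given with all libraries only.

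Most genes that build or regulate the chain were too low to test. Of 43 assembly factors 2 passed the filter, of 78 mitochondrial ribosomal proteins 6, and of 16 regulators of mitochondrial biogenesis, the NRF1 and PGC-1 genes among them, 0, and none was called in any comparison. The summed mitochondrial ribosomal proteins ranged from 2988 to 5171 nCPM over the 24 libraries, including 4699 in the shallowest and 4256 in the deepest, and the subunit sum ranged from 1811 to 22356 over the same libraries. The ribosomal sum of vehicle libraries at 24 h, 3546 ± 97.4 nCPM, lay below that at 3 h, 4343 ± 629.9, and below that with propyzamide at 24 h, 4200 ± 245.3 (SD, n = 4 each), without overlap in either comparison.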

How the data were processed

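The 24 libraries were quantified by the authors with kallisto on GRCm38, per the submitters' processing notes, which give no version. The deposited files list, per transcript, an effective length, an estimated count and a TPM value, per the file headers. Estimated counts were summed by gene, over protein-coding transcripts where a gene has any and over all its transcripts where it has none. The sums were rounded to whole numbers for the tests, and TPM was used for levels per length. Of the genes tested, 1497 were named protein-coding nuclear genes, so shares of all genes tested are not shares of protein-coding genes. Groups came from the labels, and replicates were numbered by the order of deposit. A quasi-likelihood model over all 6 groups (edgeR 4.0.16, R 4.3.3, TMM scaling, filterByExpr) tested 2766 genes in 9 comparisons and 2 interactions, with Benjamini-Hochberg adjustment at 0.05. The common dispersion was 0.277. The fit was tested on simulated data for 3 h against unstimulated vehicle libraries with 2766 genes. It recovered 63% of 200 genes changed by a log2 of 2, with 2 false calls. The simulated counts had a lower dispersion than the data and the same composition in every library. These rates therefore belong to an easier setting than the data. Sums are in nCPM, counts scaled to 1000000 in 18439 named protein-coding nuclear genes and carry no test. The difference of the nuclear to mitochondrial ratio is a difference of mean log2 values. DESeq2 1.42.0, other scalings and filters, and leaving out libraries were tried as alternatives. Members are named where they were called, had 1 of the 3 smallest unadjusted p-values under 0.05 of a comparison, were among the 4 highest in mean CPM of their complex or belong to a pair of widely expressed and tissue-restricted isoforms. Other members named, such as those with no overlap or a high TPM, and the roles were named after their values were seen. The members and the gene lists were chosen with earlier results of these data known. Intervals cover counting error only. Values of some single genes are not reported here.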

Additional observations from a re-analysis of the deposited data

Results flagged for a closer look

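In 228 group values of sums, ratios and member levels, 12 held a library far from the other 3 of its group, by Dixon's test at the 95% level, which compares its gap to the nearest library with the range of the group. Chance gives such a library in about 1 in 20 groups, and 12 of 228 is near that share. The complex II sum was highest in vehicle 24 h replicate 4, at 898.1 nCPM, and in propyzamide 24 h replicate 3, the deepest library, at 1318 nCPM. The nuclear to mitochondrial ratio of complex I was lowest in propyzamide unstimulated replicate 2, at 1.318%, and that of complex V in the shallowest library, propyzamide 3 h replicate 3, at 1.374%. In complex IV, Cox7a2 stood at 5.165 CPM in vehicle 24 h replicate 4, and Cox7b at 5.806 CPM in vehicle 3 h replicate 3 and at 8.356 CPM in propyzamide 3 h replicate 1, each the highest of its group. In complex I, Ndufa2 was at 0 CPM in propyzamide 24 h replicate 1, Ndufa4 at 42.63 CPM in propyzamide unstimulated replicate 3 and Ndufb9 at 10.74 CPM in vehicle 3 h replicate 1. Sdha was highest in vehicle unstimulated replicate 2, at 22.89 CPM, and Uqcrh lowest in vehicle 3 h replicate 2, at 2.691 CPM.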

How the results depend on the processing

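No paired analysis was possible because the labels give no replicate numbers. The count of members called from 3 h to 24 h with propyzamide, 5, was 17 with RLE scaling, 18 with DESeq2, 2 without a filter on low counts and 0 among named protein-coding genes only. It was 0 without the shallowest and the deepest library, also among named genes only, and 0 to 7 when 1 library was left out. The count from unstimulated to 3 h with propyzamide was 4 with DESeq2 and 0 to 1 when 1 library was left out, and from 3 h to 24 h with vehicle it was 1 with DESeq2. With TMM-scaled CPM of all genes, the log2 ratio of the nuclear sum was -0.411 for 3 h against unstimulated vehicle, 0.277 for 24 h against 3 h vehicle (against -0.080, the opposite sign) and 0.792 for propyzamide against vehicle at 24 h. With TPM it was -0.539 and -0.566 for 3 h and 24 h against unstimulated vehicle, 0.971 for 24 h against unstimulated propyzamide (against -0.270, the opposite sign), 2.179 for 24 h against 3 h propyzamide, and 2.359 for propyzamide against vehicle at 24 h. No TPM value without the deepest library is given, and the cause was not tested. The settings without both libraries were chosen after seeing the data. With 4 libraries a group and a median of 45292 named nuclear counts in the 23 libraries other than the deepest, most members of complex I were too low to test. Without the shallowest and the deepest library 45 members passed the filter, as with all libraries.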
